A study of Mus musculus with 27 samples.

Results

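The 38 genes described here are antiviral interferon-stimulated genes, a module taken by gene symbol from the deposited table, in which all 38 were found among 19070 entries and all 38 passed the expression filter that left 13297 genes for testing. They were followed across 27 RNA-seq libraries of macrophages grown from the bone marrow of C57BL/6 mice. Marrow cells received 5 Gy of FLASH proton irradiation (dose given at an ultra-high rate), 5 Gy of standard proton irradiation or no irradiation, and were then grown for 7 days in 10 ng/ml CSF-1, the growth factor that drives macrophage differentiation. For the next 2 days they were kept in control medium (M0), in 100 ng/ml LPS, a bacterial wall component (M1), or in 20 ng/ml IL-4, a type 2 cytokine (M2). These 3 treatments by 3 irradiation arms make 9 groups of 3 libraries. Every group shares the CSF-1 culture, and irradiation preceded differentiation, so the sequenced cells are those that survived and matured after exposure. Libraries with the same replicate number carry the same code in their titles in all 9 groups, so that the numbers mark 3 sets, but the labels do not say what a code stands for or whether replicates came from separate mice or cultures. Therefore each p-value covers only library-to-library spread, which may be technical.

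Interferon-stimulated genes are switched on when type I interferon binds its receptor and the kinases Jak1 and Tyk2 activate a complex of transcription factors, which binds a short promoter element called the interferon-stimulated response element (ISRE). In macrophages, LPS acts through TLR4 and the adaptor TRIF to induce interferon beta, which then acts back on the same cells. The products sense viral RNA, degrade it, block translation or membrane fusion, and in part restrain the pathway itself.

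Values are CPM (counts per 1e+06 reads) with a further scaling by the authors, and differences are log2 values of CPM + 0.5 with limma's standard error (SE) and Benjamini-Hochberg adjusted p over all 13297 genes, called at 0.05. Libraries held about 20.68 to 25.84 M assigned reads, estimated from the steps between low values since the table gives no counts, and 11577 to 12127 genes reached 1 CPM in each. Macrophage markers were abundant, with a summed level of 6737 to 27609 CPM for 8 markers in the 21 libraries tested. Of the 6 libraries labelled replicate 1 of an irradiated group, 5 went against their labels by the LPS-induced gene Irg1 and the IL-4-induced gene Arg1. The libraries labelled FLASH M2 and standard M2 replicate 1 had 1557 and 1715 CPM of Irg1, those labelled FLASH M0 and standard M1 replicate 1 had 655 and 643 CPM of Arg1, and the one labelled FLASH M1 replicate 1 had neither gene raised. All 5 carry the code of replicate 1, as do the non-irradiated replicate 1 libraries, which follow their labels. The 6 were left out of the tests below, which rest on 9 non-irradiated libraries and on replicates 2 and 3 of each irradiated group, and values with all 27 are given where a count moved. The p53 target Cdkn1a was at 168 to 353 CPM in non-irradiated libraries and at 478 to 858 CPM in irradiated ones, those of replicate 1 included.

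**Figure D1:**
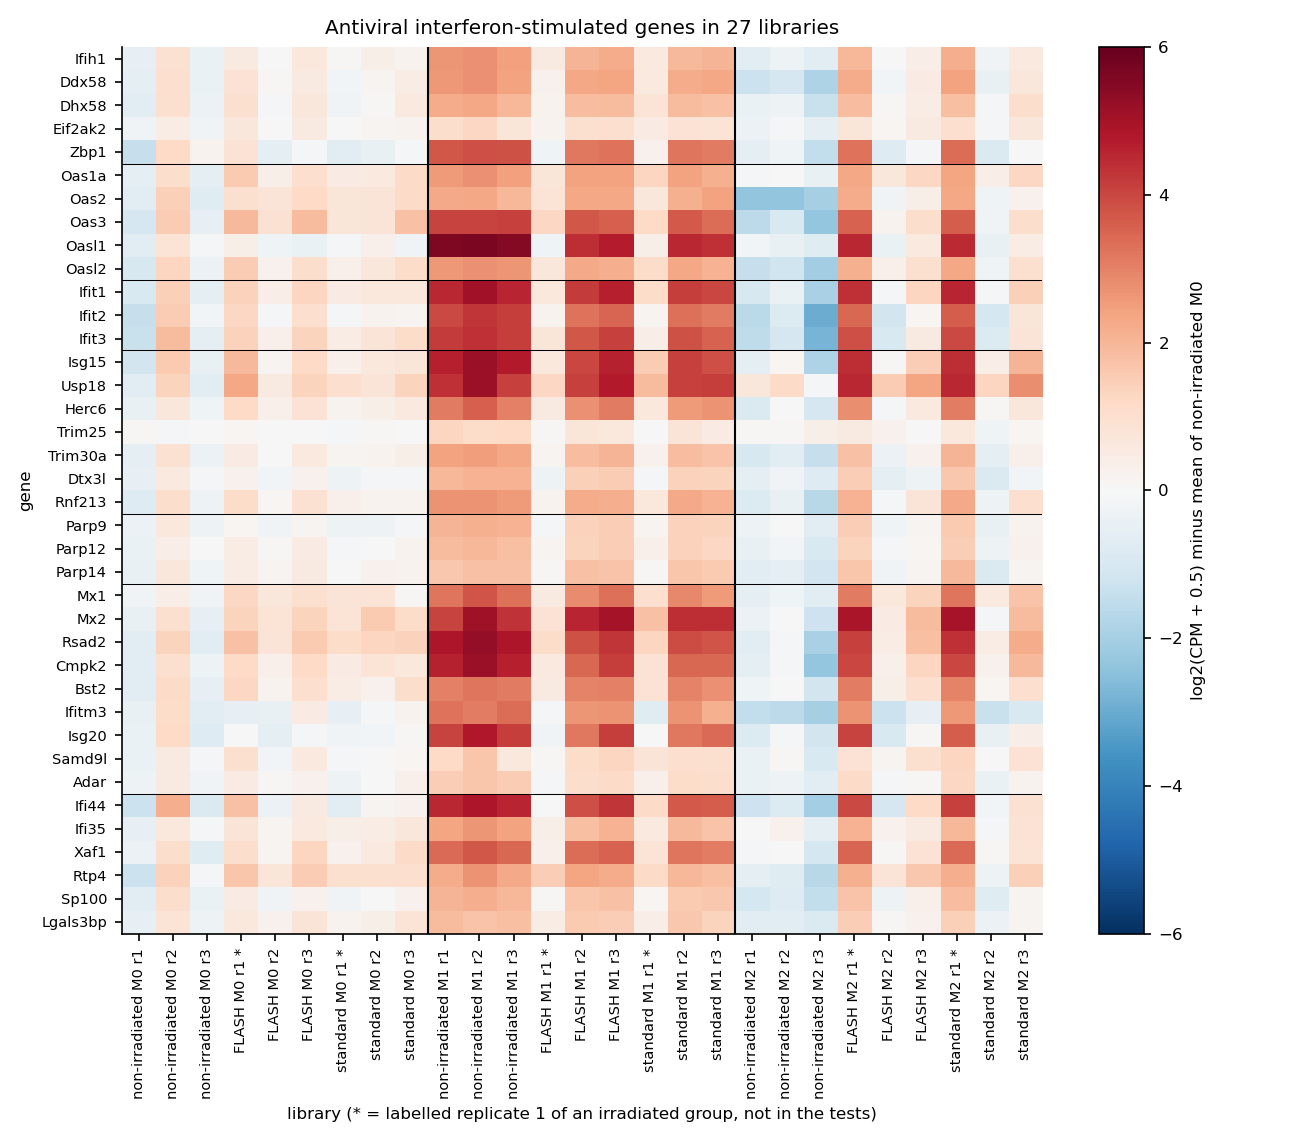
Level of each of the 38 genes (rows, grouped by role, from RNA sensors at the top to other induced genes at the bottom) in each of the 27 libraries (columns), as log2(CPM + 0.5) relative to the average over non-irradiated M0 replicates 1 to 3. All 38 genes were above every non-irradiated M0 library in each LPS library tested, and also in the 2 libraries labelled FLASH M2 and standard M2 replicate 1.

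LPS raised the whole module in non-irradiated cells. All 38 genes were called higher than in control medium, against 17.7% of all genes called higher (16.5% lower), with differences from 1.0 (Eif2ak2) to 5.59 (Oasl1) and a median of 2.65, beside a median of -0.013 over all genes. No member's LPS libraries overlapped its control libraries, which was so for 22.8% of all genes in that direction. The highest adjusted p among the members was 0.012, for Samd9l. The mean log2 level of the 38 genes was 5.54 ± 0.89 (SD, n = 3) in control medium and 8.63 ± 0.15 (SD, n = 3) in LPS.

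The 5 sensors all rose. Ifih1, the sensor MDA5 that detects long double-stranded RNA, was at 38.7, 102 and 40.4 CPM in control medium and at 338, 370 and 305 CPM in LPS, a difference of 2.62 (SE 0.30, adjusted p = 6e-06). Zbp1, which detects Z-form nucleic acids and can trigger cell death, was at 9.17, 56.9 and 28.3 CPM in control medium and at 329, 372 and 353 CPM in LPS, a difference of 3.80 (SE 0.47, adjusted p = 1.4e-05). Ddx58, the sensor RIG-I, rose by 2.58, Dhx58 (LGP2) by 2.18, and Eif2ak2, the kinase PKR that shuts down translation, by 1.0. Eif2ak2 was thus among the members with the smallest response to LPS, and it already stood at 48.2 to 77.1 CPM in control medium.

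The OAS family makes oligoadenylates that activate RNase L, and all 5 members rose. Oasl1, an OAS-like protein without that enzyme activity that is known in mice to limit Irf7 translation, was at 8.13, 23.6 and 12 CPM in control medium and at 674, 687 and 629 CPM in LPS. Its difference of 5.59 (SE 0.32, adjusted p = 8.7e-09), a fold of 48.3, was the highest of the module. Oas3 rose by 4.07, and Oasl2, Oas1a and Oas2 rose by 2.66, 2.59 and 2.20. Oas1a has close paralogs, so the split of its reads is uncertain, and the same holds for Ifit3 and Trim30a.

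In the IFIT family, Ifit1 binds viral RNA that lacks host cap methylation. Ifit1 was at 11.1, 59.4 and 14.8 CPM in control medium and at 506, 724 and 518 CPM in LPS, a difference of 4.71 (SE 0.57, adjusted p = 1.1e-05). Ifit3 and Ifit2 rose by 4.24 and 4.13. The 3 family members thus had responses close to each other.

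In the ISG15 system, the ubiquitin-like modifier Isg15 was at 8.86, 59.5 and 14.3 CPM in control medium and at 507, 739 and 547 CPM in LPS, a difference of 4.86 (SE 0.64, adjusted p = 2.4e-05). Usp18, the protease that removes Isg15 and also dampens interferon receptor signaling, was at 8.63, 34.2 and 8.09 CPM in control medium and at 295, 486 and 240 CPM in LPS, a difference of 4.54 (SE 0.51, adjusted p = 5.9e-06). The ligase Herc6 rose by 3.25, Rnf213 by 2.64, Trim30a by 2.42, Dtx3l by 2.05 and Trim25 by 1.20. Trim25, which ubiquitinates RIG-I, was even between control libraries at 224, 198 and 213 CPM and was at 512, 459 and 488 CPM in LPS. In the PARP family, Parp9 (the partner of Dtx3l) rose by 2.09, Parp12 by 1.90 and Parp14 by 1.71. Parp14 was at 160, 351 and 181 CPM in control medium and at 675, 728 and 733 CPM in LPS.

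Among the genes grouped as effectors, the Mx1 transcript was at 36.6, 55.8 and 36.7 CPM in control medium and at 394, 579 and 425 CPM in LPS, a difference of 3.43 (SE 0.29, adjusted p = 3.2e-07). Rsad2 (viperin, which makes a chain-terminating nucleotide) was at 49.3, 200 and 48.3 CPM and rose to 2270, 3031 and 2290 CPM, a difference of 4.99 (SE 0.58, adjusted p = 7.7e-06). Its neighbor Cmpk2, a nucleotide kinase, rose by 4.82, Mx2 by 4.50 and the exonuclease Isg20 by 4.33. Bst2 (tetherin, which holds budding virus at the cell surface) was at 68.9, 242 and 78.2 CPM in control medium and at 902, 1032 and 940 CPM in LPS, a difference of 3.12. Ifitm3, which blocks fusion of viral and endosomal membranes, went from 94.3, 284 and 82.8 CPM to 1247, 1089 and 1348 CPM, a difference of 3.22. The smallest responses in the group were those of the RNA editor Adar (66.4, 119 and 69.6 CPM against 232, 259 and 239 CPM, a difference of 1.56) and of Samd9l (1.16). Of the other induced genes, Ifi44 rose by 4.64, Xaf1 by 3.53, Ifi35 by 2.47, Rtp4 by 2.41, Sp100 by 2.07 and Lgals3bp by 1.82.

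Without irradiation, replicate 2 was the highest of its group for 31 of 38 members in LPS and for 33 in IL-4. In control medium, replicate 2 of the non-irradiated group stood apart in these genes. It was the highest of its group for 37 of 38 members, with a median ratio of 2.98 to the mean of the other libraries of the group and a range from 0.907 (Trim25) to 9.99 (Ifi44). Irf7, the interferon-induced amplifier of interferon production, was at 309 CPM in it and at 36.7 and 42.7 CPM in the others. Its summed levels of other cell types' markers were 80.1 CPM for plasmacytoid dendritic cells (67.6 and 68.9 CPM in the others), 135 CPM for the B lineage (115 and 148 CPM), 660 CPM for neutrophils (397 and 646 CPM) 16.5 CPM for conventional dendritic cells (6.06 and 8.31 CPM) and 6.93 CPM for T and NK cells (2.7 and 3.61 CPM). Of the 6 plasmacytoid dendritic cell markers listed, Siglech and Ccr9 were at 3.76 and 5.37 CPM in it, against at most 1.27 and 3.09 CPM in the others. The part of these cells in the difference was not tested. Every comparison with non-irradiated M0 below carries this library, and without it the median LPS response of the module was 3.25.

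Genes of the pathway around the module were read in the same comparison, in which 17.7% of all genes rose. Of the interferon ligand genes listed, only Ifnb1 and Ifng were tested. Ifnk and Ifnz did not pass the expression filter. Ifna1, Ifna2, Ifna4, Ifna5, Ifnl2 and Ifnl3 were absent from the deposited table under these symbols. Ifnb1 was at 0.115, 0.0373 and 0 CPM in control medium and at 2.00, 3.44 and 1.35 CPM in LPS, and it rose by 2.26 (adjusted p = 6.4e-05). Ifng rose by 2.26 as well, to at most 3.82 CPM. Of 8 transcription factors of the pathway listed, 6 rose and 0 fell, with Irf7 at 5.0 and Stat2 at 2.85. Of 8 inhibitors of the pathway, 7 rose and 0 fell, with Socs1 at 3.94. Of 14 genes of upstream sensing, 7 rose and 0 fell, and of 8 receptor and kinase genes tested 3 rose and 0 fell. Markers of other cells also moved: 8 T and NK cell markers summed to 2.7 to 6.93 CPM in control medium and to 38.7 to 52.8 CPM in LPS (2 of 4 tested rose, Gzmb by 5.42), and 8 neutrophil markers to 397 to 660 CPM and 76.9 to 211 CPM (4 of 8 fell). Of the 8 T and NK cell markers, 3 (Ncr1, Klrb1c and Prf1) were under 1 CPM in all of these control and LPS libraries. B-lineage markers summed to 115 to 148 CPM and 94.1 to 117 CPM (2 of 6 rose, 1 fell), and plasmacytoid dendritic cell markers to 67.6 to 80.1 CPM and 80.9 to 95.9 CPM (2 of 6 rose). Their part in the result was not tested.

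The promoters of these genes are shown because the members moved together and the ISRE is the element by which interferon acts. RefSeq promoter windows of build GRCm38.p6, 250 bases before to 50 after an annotated start, were found for 29 of the 38 genes; Dhx58, Zbp1, Oas2, Usp18, Parp9, Parp14, Mx1, Mx2 and Rtp4 were not analysed here. An ISRE-type match (GAAA, any 2 bases, then GAAA, on either strand) was present in 12 of the 29 windows (41.4%), against 3.99% of 27025 genes with a window. A match of NF-kappaB type (GGGA, any 2 bases, then TTCC, on either strand) was present in 3 of the 29 (10.3%; Ifit2, Ifitm3 and Isg20), against 1.63% of genes. In 8 of the 12 genes an ISRE-type match lay wholly before the start, and 7 of these are printed below, 5′ to 3′ on the strand of the gene, with the match in capitals (TTTC, any 2 bases, then TTTC where it lies on the opposite strand; adjoining matches share bases).
Isg15 (chr4:156200855-156200916, minus strand, bases -98 to -37 from the start): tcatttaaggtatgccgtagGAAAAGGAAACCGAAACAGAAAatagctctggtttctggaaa
Ifit1 (chr19:34640765-34640833, plus strand, -124 to -56): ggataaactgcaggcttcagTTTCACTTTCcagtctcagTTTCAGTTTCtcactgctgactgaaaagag
Ifit3 (chr19:34583353-34583436, plus strand, -176 to -93): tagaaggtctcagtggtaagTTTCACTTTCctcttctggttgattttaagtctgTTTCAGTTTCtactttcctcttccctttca
Oas3 (chr5:120777705-120777754, minus strand, -95 to -46): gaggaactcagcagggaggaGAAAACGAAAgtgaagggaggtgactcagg
Oas1a (chr5:120907526-120907565, minus strand, -40 to -1): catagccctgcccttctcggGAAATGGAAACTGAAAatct
Rsad2 (chr12:26456543-26456592, minus strand, -140 to -91): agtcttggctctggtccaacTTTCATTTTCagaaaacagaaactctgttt
Bst2 (chr8:71537567-71537622, minus strand, -150 to -95): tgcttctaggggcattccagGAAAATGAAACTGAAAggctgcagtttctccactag

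Isg15 held 3 overlapping matches in a row, and Ifit1 and Ifit3 held 2 each, set apart. The median LPS response was 3.17 in the 12 genes with a match (1.0 to 4.99) and 2.64 in the 17 without (1.16 to 5.59), so the ranges overlapped, and Oasl1, with the highest response, had no match in its window. A match is a description of the letters and not evidence of binding.

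**Figure D2:**
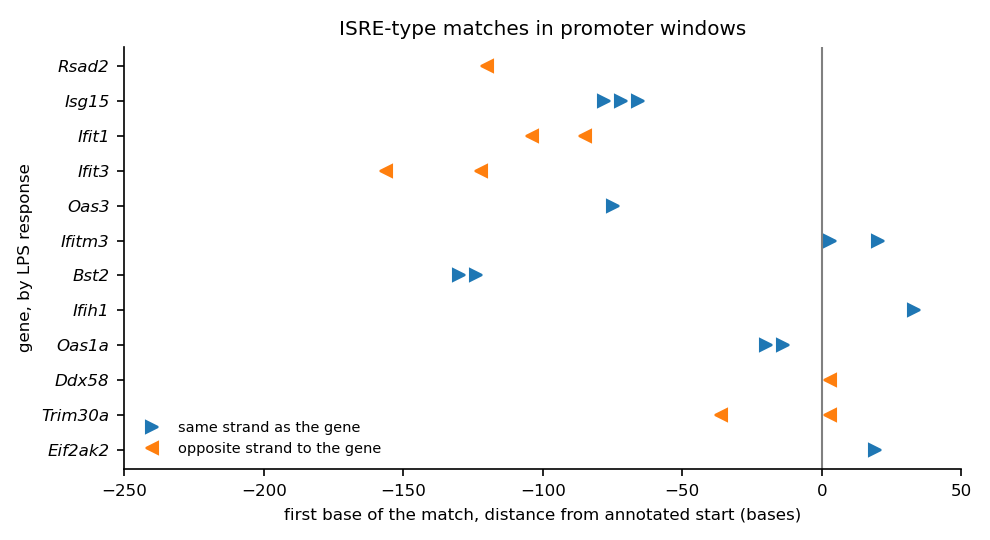
Distance in bases from the annotated start to the first base of each ISRE-type match in the 12 members that have one, with genes ordered by their LPS response from the lowest at the bottom; arrowheads give the strand. Matches of Isg15, Ifit1, Ifit3, Oas3, Rsad2 and Bst2 lie before the start, and those of Ifitm3, Ifih1, Ddx58 and Eif2ak2 after it.

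IL-4 lowered 9 of the genes in non-irradiated cells and raised none. Of 38 genes, 0 were called higher and 9 lower (23.7%), against 12.9% of all genes called higher and 12.5% called lower, and 36 of 38 differences were negative, with a median of -0.70. The libraries of 10 members (26.3%) were all below control medium, against 17.8% of all genes. Oas2, at 7.02, 31.8 and 6.87 CPM in control medium and at 1.86, 1.88 and 2.53 CPM in IL-4, fell by 2.24 on the log2 scale (SE 0.40, adjusted p = 0.00079). Ifitm3, at 47.1, 44.2 and 32.8 CPM in IL-4, fell by 1.66 (adjusted p = 0.0041), with no overlap with control medium. The others called were Oas3 (-1.60), Oasl2 (-1.55), Ddx58 (-1.38), Sp100 (-1.09), Trim30a (-0.99), Parp14 (-0.81) and Lgals3bp (-0.72). Ifit2 (-1.82, adjusted p = 0.051) and Ifit3 (-1.78, adjusted p = 0.068) were not called, and Usp18 had the highest difference at 0.59 (adjusted p = 0.45), with 22.1, 30.1 and 12.8 CPM in IL-4.

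The count depended on single libraries. It was 2 (5.26%) without non-irradiated M0 replicate 2 or without non-irradiated M2 replicate 3, against 10.1% and 11.7% of all genes. Without non-irradiated M2 replicate 1 it was 4 (10.5%, against 10.2%), and without non-irradiated M0 replicate 1 it was 17 (44.7%, against 11.4%). A replicate block gave 5 (13.2%, against 10.7%), and only the groups compared in the fit gave 2 (5.26%, against 7.18%). Where the count was 2, the share of members was below that of all genes. Replicate 3 of the IL-4 group was the lowest of its group for 36 of 38 members, and it also had less Arg1 (161 CPM against 713 and 653 CPM). In the same comparison the inhibitor Socs1 rose by 3.72 and Irf8 fell by 0.98, and 6 of 8 macrophage markers, 5 of 8 neutrophil markers, 3 of 6 B-lineage markers and 3 of 6 plasmacytoid dendritic cell markers fell, whose part in the result was not tested.

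**Figure D3:**
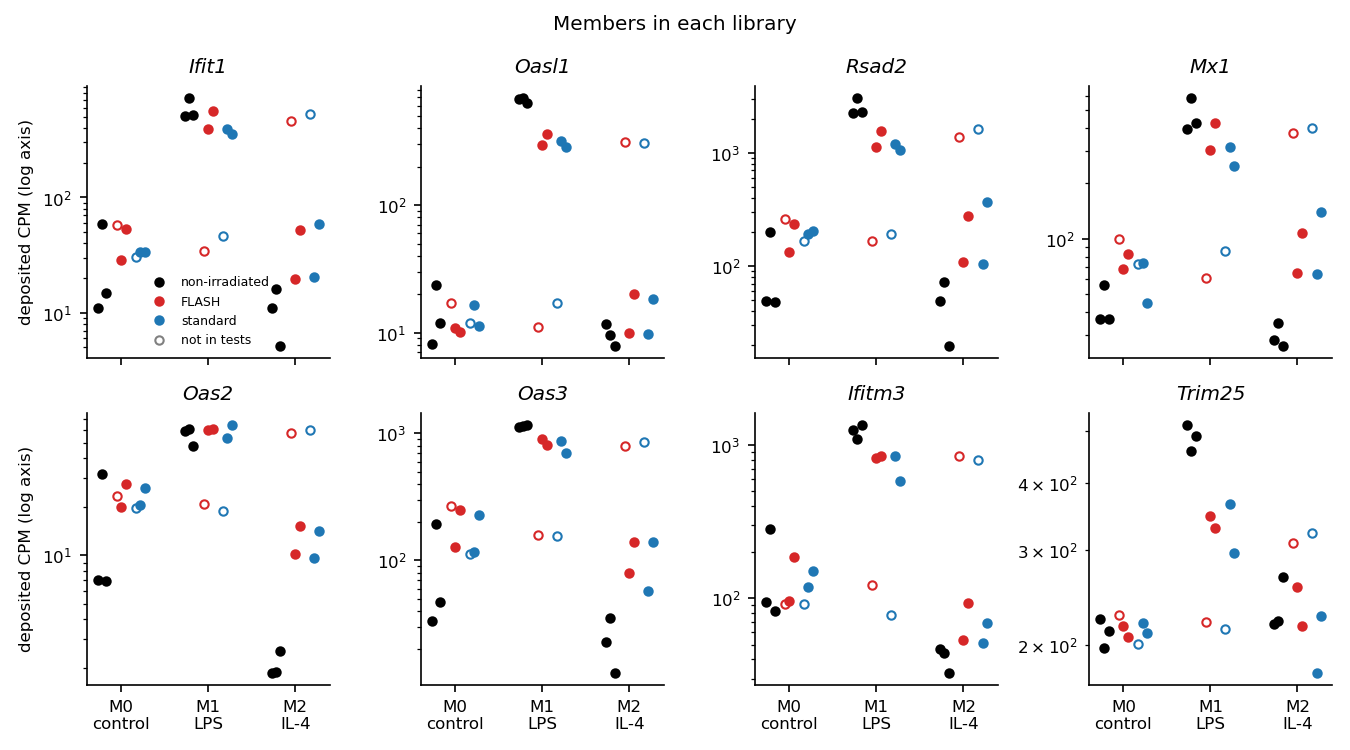
Deposited CPM (log axis) of 8 members in each library by treatment, with non-irradiated libraries in black, FLASH in red and standard in blue; open symbols are the replicate 1 libraries of the irradiated groups, plotted under their labels and not tested. LPS libraries stand above the others in every panel except for the open symbols, and the irradiated IL-4 libraries tested stand above the non-irradiated ones for Rsad2, Mx1, Oas2 and Oas3, among others.

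Irradiated cells, with FLASH and standard averaged (4 libraries), were compared with non-irradiated cells (3 libraries) within each treatment. In IL-4, 8 genes of the module were higher after irradiation. Of 38 genes, 8 were called higher (21.1%) and 0 lower, against 3.53% of all genes called higher and 2.77% called lower, and 37 of 38 differences were positive, with a median of 1.0 beside -0.01 over all genes. For 22 members (57.9%) every irradiated library was above every non-irradiated one, which was so for 9.64% of all genes. An unadjusted p below 0.05 was found for 30 members (78.9%), against 21% of all genes.

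Oas2 was at 1.86, 1.88 and 2.53 CPM in non-irradiated IL-4 libraries, at 10.1 and 15.1 CPM after FLASH and at 9.65 and 14.1 CPM after standard irradiation, a difference of 2.28 (SE 0.38, adjusted p = 0.0024). Mx1 was at 28.1, 34.9 and 26.1 CPM without irradiation, at 65.1 and 108 CPM after FLASH and at 64.3 and 139 CPM after standard irradiation, a difference of 1.58 (SE 0.27, adjusted p = 0.003). Rsad2 was at 49.4, 73.0 and 19.7 CPM without irradiation, at 108 and 276 CPM after FLASH and at 105 and 372 CPM after standard irradiation, a difference of 2.14 (SE 0.54, adjusted p = 0.029). None of the 3 genes had overlapping groups. The other genes called were Oas3 (2.12), Oasl2 (2.04), Cmpk2 (1.92), Rtp4 (1.86) and Ddx58 (1.53). By role, 3 of 5 OAS genes, 3 of 9 effectors, 1 of 5 sensors and 1 of 6 other genes were called, and no IFIT, PARP or ISG15-system gene was. Isg15, at 13.5, 21.6 and 5.15 CPM without irradiation and at 20.6, 56.3, 26.0 and 83.4 CPM after it, had a difference of 1.75 (adjusted p = 0.098), and Ifit1 had 1.73 (adjusted p = 0.065). The lowest differences were those of Dtx3l (0.04) and Trim25 (-0.11).

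The irradiated IL-4 libraries split by number. Replicate 3 exceeded replicate 2 for 37 of 38 members after FLASH and for 38 of 38 after standard irradiation, whereas the non-irradiated replicate 3 was the low one. Among libraries numbered 2, both irradiated libraries were above the non-irradiated one for 23 members and both below for 5, with a median difference of 0.22. Among libraries numbered 3, they were above for 37 members, with a median of 1.85. The count of called genes was 3 (7.89%) without non-irradiated M2 replicate 3, FLASH M2 replicate 3 or standard M2 replicate 3. Of all genes, 2.96%, 1.84% and 1.67% were called higher in these fits. The count was 4 (10.5%, against 1.93%) without non-irradiated M2 replicate 1, and 14 (36.8%, against 2.87%) without standard M2 replicate 2. A replicate block gave 3 (7.89%, against 1.71%), and only the IL-4 groups in the fit gave 4 (10.5%, against 1.23%). With all 27 libraries the count was 6 (15.8%, against 1.43%), although 2 of the libraries then counted as IL-4 had the LPS gene Irg1. Beside the module, no factor, receptor or sensing gene tested rose, nor did Ifnb1 or Ifng, the only ligands tested. Irf7 had a difference of 0.75 (adjusted p = 0.46), and 3 of 8 macrophage markers rose, Lyz2 by 1.31. The 8 macrophage markers summed to 6737 to 7376 CPM without irradiation and to 11979 to 14662 CPM after it, without overlap. Lyz2 alone averaged 8720 CPM in the irradiated IL-4 libraries. Summed plasmacytoid dendritic cell markers were at 41.4 to 49.4 CPM without irradiation and at 42.4 to 49.1 CPM after it, with Siglech and Ccr9 under 1 CPM in all 7 libraries. Most of the sum after irradiation was 1 marker, Tcf4, which averaged 37.9 CPM there. B-lineage markers summed to 32.3 to 61.7 CPM without irradiation and 7.48 to 23.9 CPM after it (3 of 6 fell), T and NK cell markers to 4.51 to 18.6 CPM and 1.04 to 3.84 CPM (1 of 4 tested fell), neutrophil markers to 23.2 to 249 CPM and 13.0 to 26.3 CPM (3 of 8 fell), and conventional dendritic cell markers to 5.7 to 9.13 CPM and 4.1 to 5.12 CPM (none of 5 tested called). Their part in the result was not tested.

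In LPS, 2 genes of the module, Oasl1 and Trim25, were lower after irradiation. Of 38 genes, 0 were called higher and 2 lower (5.26%), against 3.79% of all genes called higher and 5.29% called lower, a share close to the background. Differences were negative for 36 of 38 genes, with a median of -0.47 beside -0.003 over all genes, and for 26 members (68.4%) every irradiated library was below every non-irradiated one, against 12.6% of all genes. Oasl1 was at 674, 687 and 629 CPM in non-irradiated LPS libraries, at 297 and 359 CPM after FLASH and at 319 and 285 CPM after standard irradiation, and fell by 1.08 (SE 0.30, adjusted p = 0.036). Trim25 was at 512, 459 and 488 CPM without irradiation and at 347, 330, 366 and 296 CPM after it, and fell by 0.54 (SE 0.11, adjusted p = 0.0045). Both genes had groups that did not overlap. Rsad2, at 2270, 3031 and 2290 CPM without irradiation and at 1118, 1563, 1189 and 1069 CPM after it, also did not overlap, yet its difference of -1.04 was not called (SE 0.54, adjusted p = 0.27). Cmpk2 had the lowest difference, -1.20 (adjusted p = 0.17), and Mx2 and Oas2 the highest, both at 0.10. Isg20 was at -0.87 (adjusted p = 0.23) and Parp9 at -0.70 (0.055).

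The spread assigned to each gene was pooled over all 9 groups, and LPS libraries were closer together than those in control medium or IL-4. With only the LPS groups in the fit, 19 members (50%) were called lower, against 5.25% of all genes in that fit. Oasl1 lost its call without any 1 of the 7 LPS libraries (adjusted p = 0.066 to 0.10), with a replicate block (0.06), with replicates 2 and 3 alone (0.069) and with all 27 libraries (0.22), whereas Trim25 kept its call in all 18 alternatives. Among libraries numbered 2, both irradiated libraries were below the non-irradiated one for 37 members, and among those numbered 3 for 28. Of the 8 transcription factors listed, 3 fell, including Irf1 (-1.76) and Irf8 (-0.85), and 0 rose. Ifnb1 fell by 1.09 (adjusted p = 0.038), from 2.00, 3.44 and 1.35 CPM to 0.605, 2.10, 0.702 and 0.171 CPM, which overlap. This call was lost in 8 of 17 alternatives, with an adjusted p of up to 0.18. Ifng fell by 2.18, Socs1 by 1.73 (lost in 4 of 18, up to 0.097) and Tlr9 by 1.82, and Irf7 had -0.55 (adjusted p = 0.58).

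Markers of other blood cells moved with this comparison. The summed level of 8 T and NK cell markers was 38.7 to 52.8 CPM in non-irradiated LPS libraries and 0.807 to 3.92 CPM in irradiated ones, with 3 of 4 tested markers called lower and Gzmb falling by 5.49. The sum did not reflect all 8 markers, since 3 of them (Ncr1, Klrb1c and Prf1) were under 1 CPM in every non-irradiated LPS library. Plasmacytoid dendritic cell markers, from cells that make much type I interferon, summed to 80.9 to 95.9 CPM and 58.6 to 65.0 CPM, with 2 of 6 called lower, Siglech by 2.25 and Ccr9 by 2.64, both under 1 CPM in all irradiated LPS libraries. Most of the sum after irradiation was 1 marker, Tcf4, which averaged 53.4 CPM there. B-lineage markers summed to 94.1 to 117 CPM and 8.19 to 15.0 CPM (5 of 6 lower), neutrophil markers to 76.9 to 211 CPM and 13.6 to 42.4 CPM (5 of 8 lower), and conventional dendritic cell markers to 8.78 to 12.7 CPM and 1.86 to 5.93 CPM (1 of 5 tested lower). Their part in the result was not tested. In bulk RNA, fewer cells of a type and less RNA per cell cannot be told apart.

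In control medium no member was called after irradiation, against 3.78% of all genes called higher and 4.51% called lower; an unadjusted p below 0.05 was found for 7 members (18.4%), against 24.1% of all genes. Differences were positive for 33 of 38 genes, with a median of 0.34, from -0.29 (Zbp1) and -0.19 (Isg20) to 1.26 (Rsad2) and 1.33 (Oas3). Oas3 was at 33.5, 195 and 47.3 CPM without irradiation and at 127, 250, 117 and 228 CPM after it, so the groups overlapped, as they did for all 38 members; 11.2% of all genes were without overlap and higher, and 11.5% lower. Among libraries numbered 2 both irradiated libraries were below the non-irradiated one for 35 members (median -0.71), and among those numbered 3 both were above it for 35 (median 0.95). Without non-irradiated M0 replicate 2, 12 members (31.6%) were called higher, against 3.14% of all genes in that fit, with a median of 0.85 over the module. They included Oas2 (1.67, adjusted p = 0.00042) and Lgals3bp (0.96, adjusted p = 0.0045), and the others were Ifih1, Oas1a, Oas3, Oasl2, Ifit3, Usp18, Rsad2, Bst2, Xaf1 and Rtp4. Neutrophil markers fell in 7 of 8 cases in this comparison, from a sum of 397 to 660 CPM to 12.9 to 19.9 CPM. B-lineage markers fell in 4 of 6 cases (115 to 148 CPM against 8.68 to 23.7 CPM), conventional dendritic cell markers in 2 of 5 tested (6.06 to 16.5 CPM against 0.996 to 2.37 CPM) and plasmacytoid dendritic cell markers in 2 of 6 (67.6 to 80.1 CPM against 47.7 to 66.8 CPM). Most of the plasmacytoid sum after irradiation was Tcf4, which averaged 53.6 CPM there. T and NK cell markers were at 2.7 to 6.93 CPM and 1.56 to 2.86 CPM, with none called. The part of these cells was not tested.

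**Figure D4:**
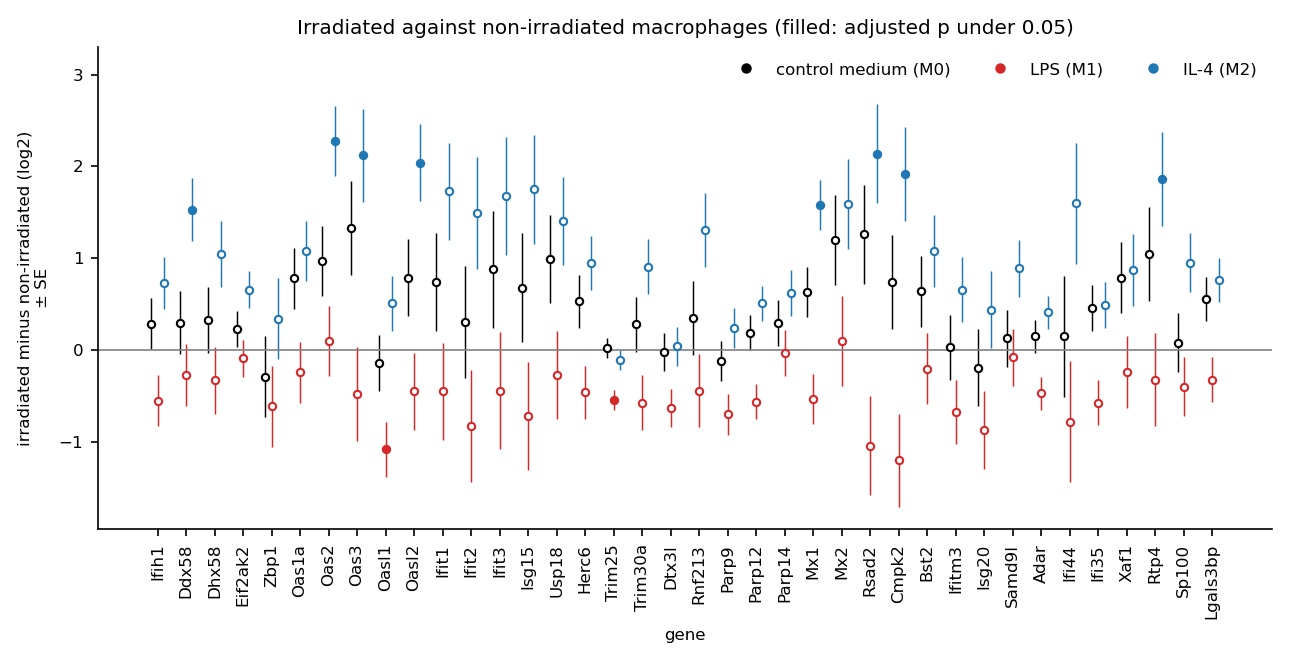
Difference between irradiated and non-irradiated cells (log2, ± SE from limma) for each member in control medium (black), LPS (red) and IL-4 (blue); filled symbols are called. Blue symbols lie above red ones for all 38 genes, with 8 filled for IL-4, 2 for LPS and 0 for control medium.

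The irradiation difference in IL-4 was then compared with that in LPS, a comparison added after the values were seen. It was higher in IL-4 for 38 of 38 genes, with a median of 1.40, and was called for 6 (15.8%) and lower for 0, against 2.01% of all genes called higher and 1.37% called lower. Rsad2 had 3.18 (adjusted p = 0.035), Cmpk2 3.12 (0.03), Oasl2 2.50 (0.032), Oas2 2.18 (0.036), Mx1 2.11 (0.0094) and Parp12 1.06 (0.04). An unadjusted p below 0.05 was found for 35 members (92.1%), against 18.9% of all genes. The count was 1 (2.63%) or 2 (5.26%) when any 1 of 10 single libraries was left out, against 0.797% to 1.65% of all genes. Without standard M2 replicate 2 it was 15 (39.5%, against 2.38%), and with all 27 libraries it was 9 (23.7%, against 1.7%). A replicate block gave 1 (2.63%, against 1.07%), and replicates 2 and 3 alone gave 0.

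The response to LPS was next compared between irradiated and non-irradiated cells. In irradiated cells 37 of 38 genes were called higher in LPS than in control medium (97.4%), against 17.5% of all genes called higher (17.4% lower), with a median of 1.93, and all 38 had LPS libraries above all control libraries, against 18.3% of all genes. Rtp4 was not called (1.04, adjusted p = 0.10), at 8.92, 15.6, 10.5 and 10.9 CPM in control medium and at 28.3, 25.8, 21.8 and 19.4 CPM in LPS. Oasl1 again had the highest difference, 4.66, and Trim25 the lowest, 0.64. With all 27 libraries under their labels 0 members were called by limma, and the M1 group then held 2 libraries without raised Irg1 and the M2 group 2 with it.

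The difference was smaller after irradiation for all 38 genes, by a median of 0.87 on the log2 scale. As a ratio of log2 differences, not of folds, the irradiated response was 43.2% (Rtp4) to 91.8% (Zbp1) of the non-irradiated one. No member was called in the test of this difference, against 0.767% of all genes called lower and 0.767% called higher, and an unadjusted p below 0.05 was found for 13 (34.2%), against 17.6% of all genes. Rsad2 had -2.30 (SE 0.77, adjusted p = 0.14), Cmpk2 -1.94 (0.18), Trim25 -0.56 (0.074), Eif2ak2 -0.31 (0.63) and Samd9l -0.21 (0.85). Without non-irradiated M0 replicate 2, 10 members (26.3%) were called lower, against 1.41% of all genes in that fit: Ifih1, Oas1a, Oas2, Oas3, Oasl2, Trim30a, Rsad2, Adar, Ifi35 and Lgals3bp. The 2 responses share no libraries, but both the control and the LPS levels enter: the module's mean log2 level went from 5.54 to 8.63 without irradiation and from 6.00 ± 0.27 to 8.15 ± 0.14 (SD, n = 4) with it.

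**Figure D5:**
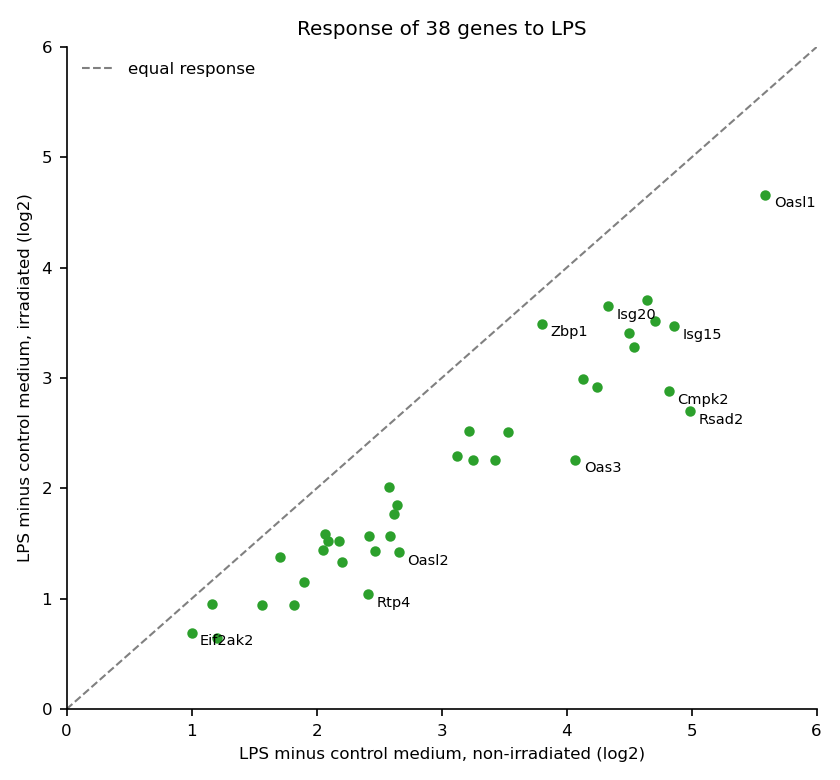
LPS minus control medium (log2) in irradiated cells (vertical axis) against non-irradiated cells (horizontal axis) for the 38 genes; the dashed line marks equal responses. All points lie below the line, with Rsad2, Cmpk2 and Oas3 the farthest from it.

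The response to IL-4 left few calls after irradiation. Of 38 genes, 0 were called higher and 1 lower (2.63%), against 12.2% and 12.0% of all genes, with a median of -0.12. The libraries of 4 members (10.5%) were all below control medium, against 14.2% of all genes. Ifitm3 was at 96.0, 185, 119 and 150 CPM in control medium and at 53.6, 93.1, 51.1 and 68.8 CPM in IL-4, and fell by 1.04 (SE 0.32, adjusted p = 0.028), with no overlap. It was also lower in IL-4 in non-irradiated cells. Ifit3 had the next lowest difference, -0.97 (adjusted p = 0.26), and Usp18 and Mx1 the highest, 1.01 (0.12) and 0.44 (0.23). In the test of the difference between the 2 IL-4 responses 0 members and 0 genes of all were called (0.0%), with 37 of 38 members higher in irradiated cells, a median of 0.63 and a range from -0.12 (Trim25) and 0.02 (Ifi35) to 1.31 (Oas2) and 1.45 (Ifi44); 3 members (7.89%) had an unadjusted p below 0.05, against 8.27% of all genes. Without non-irradiated M0 replicate 2 the median was 0.10.

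FLASH and standard irradiation, the question the study's arms pose most directly, were compared over the mean of the 3 treatments and within each. No member was called, as no gene of the 13297 was (0.0%), and no member had an unadjusted p below 0.05, which 1080 of all genes had over the mean. Differences over the mean ranged from -0.11 (Isg20, SE 0.32) and -0.06 (Dhx58, SE 0.27) to 0.20 (Parp14, SE 0.19) and 0.39 (Rtp4, SE 0.38), with a median of 0.06. In LPS all 38 were positive, from 0.03 to 0.41 with a median of 0.14, but each arm had 2 libraries. Ifit1, for example, was at 396 and 563 CPM in LPS after FLASH and at 392 and 356 CPM after standard irradiation, and at 19.6 and 52.6 CPM against 20.3 and 59.2 CPM in IL-4. For Ifit1 the libraries of one arm were farther apart than the means of the arms.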

How the data were processed

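Bulk RNA-seq of mouse bone marrow-derived macrophages was measured in 27 libraries. The submitters' processing notes name kallisto 0.46.1, edgeR 3.36.0, R 4.0.5 and the build GRCh38, a human build, for these mouse samples; how each was used is not given in the sources used here. The deposited table holds a normalized signal per gene, recorded as CPM with TMM scaling between libraries, with column sums of 929338.3 to 1072649.8. Further details of the scaling are not given in the sources used here. The table has no counts, so no count test was run. Of 19070 entries, 1 has no symbol (0.0048% to 0.008% of a column) and was left out.

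From these values, genes reaching 1 CPM in 3 or more of the 27 libraries were kept (13297), log2(CPM + 0.5) was taken, and limma 3.58.1 (R 4.3.3, statmod 1.5.0) was fitted with trend and robust moderation on 21 libraries, with 9 group means and 12 residual degrees of freedom, for 14 comparisons. Fold changes on this scale understate the change of low genes. P-values are two-sided and adjusted by Benjamini-Hochberg over all genes tested. The 6 libraries labelled replicate 1 of an irradiated group were left out because 5 went against their labels (Irg1 at 500 CPM or more, Arg1 at 100 CPM or more); no library was given another label. The scripts were tested on simulated data.

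The 38 members and all lists were chosen with earlier results of these data known. Values per library are given for members of each role, and in each comparison the 2 highest and 2 lowest members are named, with any called against the rest. Alternatives changed the libraries used, the pseudocount, the filter, the scaling (median of ratios), the moderation, the groups in the fit and a replicate block, and each library was left out in turn. Promoter windows come from RefSeq (GRCm38.p6), whose build is not the one the notes name; they were matched by symbol. One gene of the pathway lists is not reported here.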

Additional observations from a re-analysis of the deposited data

Results flagged for a closer look

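The effect of irradiation differed between IL-4 and LPS, by the limma test of the difference itself, for 6 members (15.8%, against 2.01% of all genes). The difference, IL-4 minus LPS on the log2 scale, was 3.18 for Rsad2, 3.12 for Cmpk2, 2.50 for Oasl2, 2.18 for Oas2, 2.11 for Mx1 and 1.06 for Parp12. The comparison was added after the values were seen. The count fell to 1 or 2 (2.63% or 5.26%, against 0.797% to 1.65% of all genes) without any single LPS library. It did so too without FLASH M2 replicate 3, non-irradiated M2 replicate 1 or standard M2 replicate 3. Without each of the other IL-4 libraries it was 4 to 15 (10.5% to 39.5%, against 1.67% to 2.55%). A replicate block gave 1 (2.63%, against 1.07%), and replicates 2 and 3 alone gave 0.

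The 6 libraries set aside entered only the alternative fits, and their levels of the module are given here. The libraries labelled FLASH M2 and standard M2 replicate 1 each had all 38 members above every non-irradiated M0 library, and 30 and 24 members lay within the range of the irradiated LPS libraries. The library labelled FLASH M0 replicate 1 had 19 members above every non-irradiated M0 library, the one labelled standard M1 replicate 1 had 6, the one labelled FLASH M1 replicate 1 had 2, and the one labelled standard M0 replicate 1 had 1. Their mean log2 levels of the 38 genes were 8.21 and 8.30 for the M2 labels, 6.51 and 5.72 for the M0 labels, and 5.92 and 6.19 for the M1 labels, FLASH first.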

How the results depend on the processing

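All 38 members were called higher in LPS in non-irradiated cells under every alternative run but 3, with 37: replicates 2 and 3 alone, without non-irradiated M0 replicate 1 and without non-irradiated M1 replicate 2. The other counts moved, and the cause was not tested. With all 27 libraries under their labels, members called lower with IL-4 in non-irradiated cells went from 9 to 1 (2.63%, against 4.9% of all genes). Those lower after irradiation in LPS went from 2 to 1 (2.63%, against 3.26%). Members higher with LPS in irradiated cells went from 37 to 0, and those lower with IL-4 in irradiated cells from 1 to 0. There Mx2 (-1.0) and Oas2 (-0.42) turned negative for irradiation in LPS, Trim25 turned positive for irradiation in IL-4 (0.07) and for the difference of the IL-4 responses (0.05), Ifitm3 (0.36) and Ifit3 (0.35) turned positive for IL-4 in irradiated cells, and Dhx58 was at 0.02 for FLASH against standard. With replicates 2 and 3 alone, 1 member was lower after irradiation in LPS (2.63%, against 3.4% of all genes) and 4 were higher in IL-4 (10.5%, against 1.53%). In that fit 0 differed between IL-4 and LPS, with Mx2 at -0.12 in LPS and Samd9l at 0.00 for the difference of the LPS responses. With only the groups compared, 2 members were lower with IL-4 in non-irradiated cells (5.26%, against 7.18% of all genes) and 2 in irradiated cells (5.26%, against 12.5%). After irradiation 19 were lower in LPS (50%, against 5.25%) and 4 higher in IL-4 (10.5%, against 1.23%). The counts were 16 for IL-4 against LPS (42.1%, against 1.99%) and 1 for the difference of the LPS responses (2.63%, against 0.835%).

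Replicate numbers share a code in the titles whose meaning the labels do not give. Over all 13297 genes, deviations from the group mean had correlations of -0.30 to 0.14 in same-numbered pairs (median -0.12, 2 of 75 over 0.1). Different-numbered pairs had -0.19 to 0.30 (median 0.08). In groups of 2 libraries the deviations mirror each other, so the pairs are not independent. Within the module, replicate 2 was the highest of its group without irradiation for 37 (M0), 31 (M1) and 33 (M2) of 38 members. Replicate 3 was the highest for 36, 31 and 37 members after FLASH in M0, M1 and M2. After standard irradiation it was the highest for 29, 9 and 38. With a replicate block, 5 members were lower with IL-4 in non-irradiated cells (13.2%, against 10.7% of all genes). After irradiation 1 was lower in LPS (2.63%, against 4.11%) and 3 were higher in IL-4 (7.89%, against 1.71%), and 1 differed between IL-4 and LPS (2.63%, against 1.07%). For irradiation in that fit, Mx2 and Oas2 were at -0.02 in LPS and Dtx3l at -0.06 in IL-4.

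Leaving out 1 library at a time gave 2 to 17 members lower with IL-4 in non-irradiated cells, 0 to 3 lower and 0 to 1 higher with IL-4 in irradiated cells, 1 to 1 lower after irradiation in LPS, 3 to 14 higher in IL-4, 0 to 12 higher in control medium, 0 to 10 lower for the difference of the LPS responses and 1 to 15 for IL-4 against LPS. Signs turned for small values: irradiation in control medium for Isg20 (-0.58 to 0.41) and Zbp1 (-0.98 to 0.30), in LPS for Mx2 (-0.12 to 0.41) and Oas2 (-0.01 to 0.17) and in IL-4 for Dtx3l (-0.14 to 0.22), the difference of the LPS responses for Samd9l (-0.47 to 0.03), that of the IL-4 responses for Ifi35 (-0.29 to 0.27), and FLASH against standard for Dhx58 (-0.26 to 0.13) and Isg20 (-0.27 to 0.06).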
